A study of Rattus norvegicus with 9 samples.

Results

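The genes described here encode the Toll-like receptors Tlr2, Tlr3, Tlr4, Tlr5 and Tlr7, the co-receptor Cd14, the adaptor Myd88, and the 3 components of the NLRP3 inflammasome, Nlrp3, Pycard and Casp1. They were taken by gene symbol and not by a rule on their values, though with earlier results of these data known. They made up 10 of the 20413 genes of the expression table. Each symbol matched 1 gene of the table. RNA-Seq was performed on the right (ipsilateral) L4-6 dorsal root ganglia (DRGs) of male Sprague Dawley rats aged 8 to 10 weeks, with 3 libraries in each of 3 groups. In the chronic post-ischemic pain (CPIP) group, a model of complex regional pain syndrome type-I, a tight O-ring on the right hind limb of the anesthetized rat stopped the blood flow for 3 h and was then cut off. In the Sham group, also anesthetized, the ring had been cut beforehand and left the blood flow intact. The CPIP+EA group received the CPIP procedure and then 10 daily sessions of bilateral electroacupuncture (EA, 100 Hz for 30 min) at acupoints of the hind limb. The ganglia were collected on day 10 from 3 rats per group, after perfusion of the animals with saline. No sham acupuncture group was among the samples.

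Toll-like receptors are sensors of microbial products and of molecules released by damaged tissue. Tlr2, Tlr4 and Tlr5 act at the cell surface, where they respond to lipoproteins, lipopolysaccharide and flagellin, and Tlr3 and Tlr7 act in endosomes, where they respond to double-stranded and single-stranded RNA. Cd14 hands lipopolysaccharide to Tlr4, and Myd88 couples every Toll-like receptor except Tlr3 to the kinases that activate NF-kappaB. NF-kappaB in turn raises the transcription of Nlrp3 and Il1b, and a second signal, such as ATP acting on P2rx7, lets Nlrp3 assemble with Pycard (also called ASC) and Casp1, the protease that matures interleukin-1 beta and interleukin-18 and cleaves Gsdmd. In the DRG these genes are known from resident macrophages, from satellite glia and, for some receptors, from sensory neurons. RNA levels of the inflammasome components do not report its assembly or the cleavage of its substrates.

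The sequences just before the transcription starts of 4 of the genes are given with their motif matches. They are the 250 bases upstream of the RefSeq start on the rat assembly GRCr8 (directly before the first annotated exon), written 5′ to 3′ on the strand of the gene, with the motif matches in capitals. The window of Myd88 lies at chr8:127956231-127956480 (minus strand), that of Casp1 at chr8:10872580-10872829 (plus strand), that of Nlrp3 at chr10:44827848-44828097 (plus strand) and that of Tlr2 at chr2:171504558-171504807 (minus strand). The capitals mark an AP-1 motif and an interferon-stimulated response element (ISRE) core in Myd88, an ISRE core in Casp1, a PU.1 core in Nlrp3 and kappaB motifs in Tlr2.
Myd88: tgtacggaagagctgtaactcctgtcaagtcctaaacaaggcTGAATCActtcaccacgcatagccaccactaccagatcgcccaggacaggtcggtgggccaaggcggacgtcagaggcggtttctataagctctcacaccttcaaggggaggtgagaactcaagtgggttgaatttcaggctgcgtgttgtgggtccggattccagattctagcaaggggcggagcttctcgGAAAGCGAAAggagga
Casp1: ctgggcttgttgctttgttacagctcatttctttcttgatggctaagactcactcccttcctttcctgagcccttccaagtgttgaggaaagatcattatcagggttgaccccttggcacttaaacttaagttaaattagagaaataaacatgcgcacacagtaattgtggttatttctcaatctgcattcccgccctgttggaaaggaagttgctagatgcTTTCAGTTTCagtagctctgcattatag
Nlrp3: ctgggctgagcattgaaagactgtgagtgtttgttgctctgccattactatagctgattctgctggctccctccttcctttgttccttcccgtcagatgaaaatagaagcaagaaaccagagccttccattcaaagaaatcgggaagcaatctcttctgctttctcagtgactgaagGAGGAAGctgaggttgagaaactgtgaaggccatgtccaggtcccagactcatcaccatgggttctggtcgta
Tlr2: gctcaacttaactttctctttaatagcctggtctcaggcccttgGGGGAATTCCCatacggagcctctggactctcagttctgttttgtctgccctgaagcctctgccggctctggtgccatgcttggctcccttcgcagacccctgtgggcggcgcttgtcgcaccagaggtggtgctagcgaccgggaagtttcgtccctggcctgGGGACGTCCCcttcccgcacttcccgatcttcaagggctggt
Both strands were searched. The ISRE core, searched as 2 copies of TTTC with 2 bases between them and read by interferon regulatory factors, was present in 2 of the 10 genes, Myd88 (bases 16 to 7 before the start) and Casp1 (bases 28 to 19 before the start), against 3.41% of the 33469 RefSeq promoter windows of the same length. The core GAGGAAG of PU.1, the transcription factor of the myeloid lineage, was present in 3 of 10 (Tlr4, Cd14 and Nlrp3), against 10.2% of all windows. The kappaB motif was found in Tlr2 alone among the 10, against 6.33% of all windows, with overlapping matches at bases 206 to 196 and another at bases 42 to 33 before the start. AP-1 (TGANTCA) was found in Myd88 alone, against 6.34%, and the TATA box letters TATAAA in 0 of 10, against 12.9%. These matches are letters in a window, and no binding was measured.

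All 9 libraries were of similar breadth, with 18279 to 18456 genes above 0 and summed FPKM between 445647 and 482940. The table gives no read counts, so the number of reads behind a single value is not known from it. Of the 20413 genes, 17187 had a mean of at least 0.1 FPKM over the 9 libraries and were tested, and all 10 genes were among them. The defining markers of sensory neurons were high throughout, with a sum of 12 markers between 4492 and 5734 FPKM. CPIP+EA replicate 3 stood apart: its summed neutrophil and granule markers reached 864.9 FPKM, against 50.05 to 348.5 in the other 8 libraries, and its summed erythroid markers 6322, against 716 to 4242. Some results are therefore also given without it, while the counts over the marker and pathway lists include it. The ganglia are bulk tissue, in which fewer cells of a type and less RNA per cell cannot be told apart.

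All 10 genes were detected in every library, at low to moderate levels. On the FPKM scale, which divides by transcript length and so allows levels to be compared between genes, Pycard (mean 5.78 over the 9 libraries) and Myd88 (mean 5.76) were the most abundant. Their ranges overlapped with each other, and that of Myd88, 4.80 to 6.91, lay above that of Tlr3 (1.59 to 3.51), the gene ranked after it. Below came Tlr3 (2.57), Cd14 (2.52), Casp1 (2.44), Tlr4 (2.15), Tlr2 (1.81), Tlr7 (1.65), Nlrp3 (1.22) and Tlr5 (0.564), and each neighbouring pair in this order overlapped in range. By mean level, Pycard exceeded 44.9% of the genes tested and Tlr5 exceeded 13.6%. The sensor of the inflammasome was thus present at a lower RNA level than its adaptor in each of the 9 libraries.

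**Figure D1:**
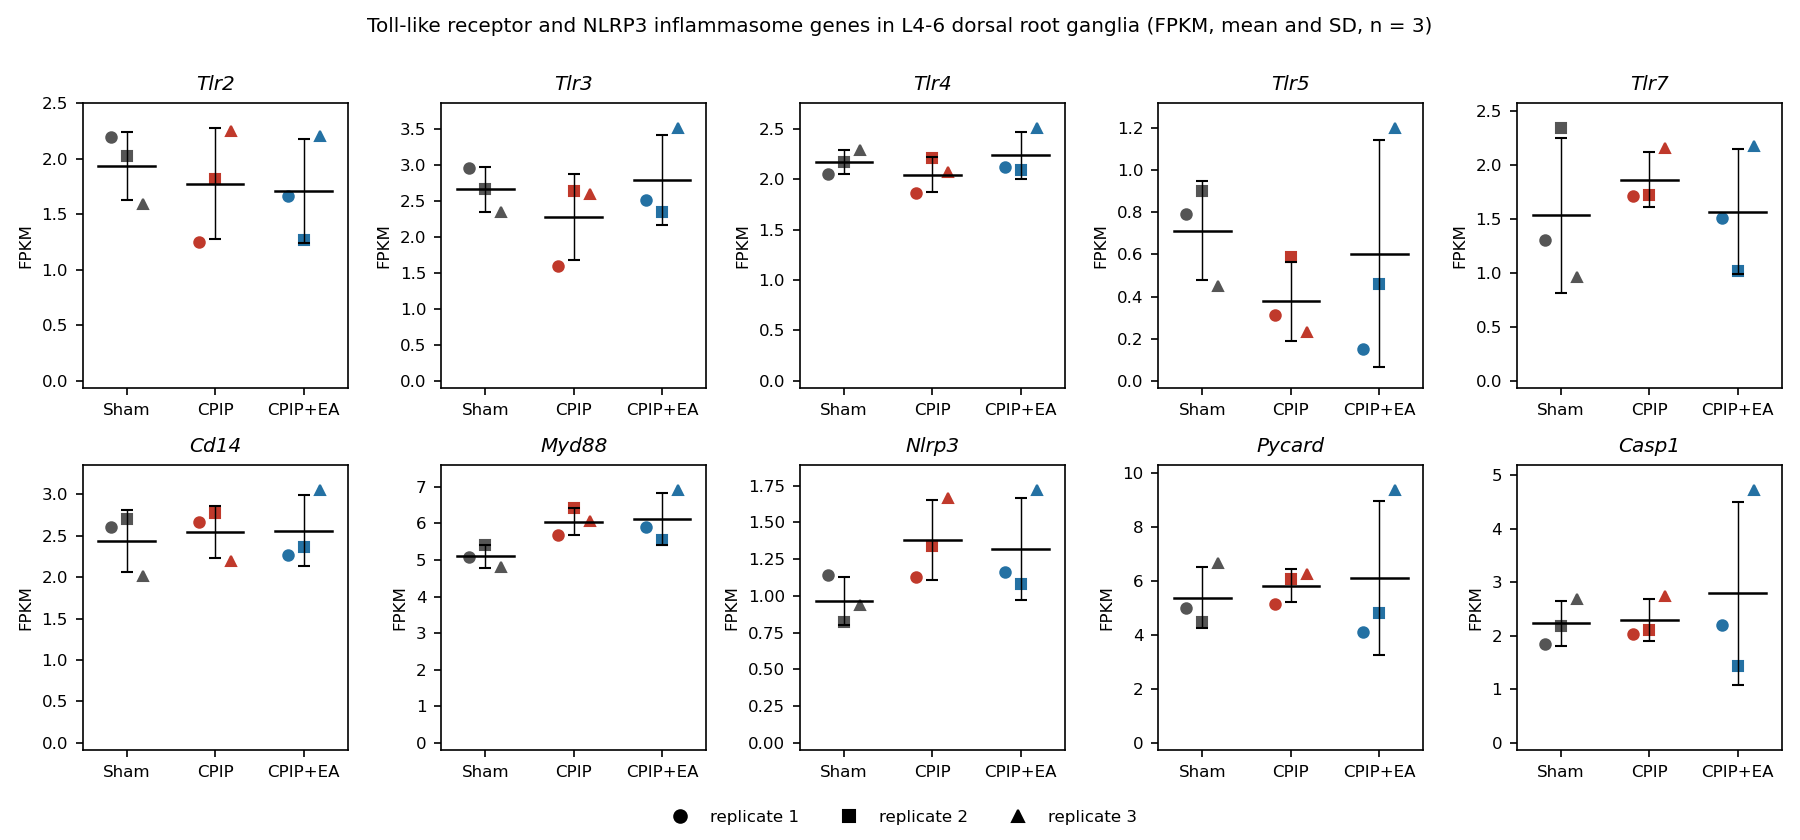
Expression of the 10 genes in each library (FPKM, vertical axes including 0) for Sham, CPIP and CPIP+EA, with symbols for replicates 1 to 3, a line at the group mean and bars of 1 SD (n = 3). Myd88 is the panel in which all 6 CPIP and CPIP+EA libraries lie above the 3 Sham libraries, and CPIP+EA replicate 3 (triangle) is the highest point in 8 of the 10 panels.

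Among the cell-surface receptors, Tlr4 varied least. Its FPKM was 2.05, 2.17 and 2.29 in the Sham libraries, 1.86, 2.21 and 2.07 after CPIP and 2.12, 2.09 and 2.51 after CPIP with EA. The groups overlapped, with the lowest value in CPIP replicate 1 and the highest in CPIP+EA replicate 3. On the log2(FPKM + 0.5) scale its log2 fold change was -0.07 (SE 0.11, 95% interval -0.31 to 0.17) in CPIP against Sham and 0.10 (-0.14 to 0.35) in CPIP+EA against CPIP, so that a change of 1.5-fold on that scale lay outside both intervals. Tlr2, which pairs with Tlr1 or Tlr6, was at 2.19, 2.02 and 1.59 in Sham rats, 1.25, 1.82 and 2.25 after CPIP and 1.66, 1.27 and 2.20 after CPIP with EA. Both its lowest and its highest value fell in the CPIP group, and the difference between the CPIP and Sham means (1.77 ± 0.502 against 1.93 ± 0.309, SD, n = 3) was smaller than the SD of the CPIP libraries. Tlr5, the flagellin receptor, was the rarest of these 5 receptors and the most scattered, at 0.79, 0.90 and 0.45 in Sham rats, 0.31, 0.59 and 0.23 after CPIP and 0.15, 0.46 and 1.2 after CPIP with EA. The lowest and the highest of its 9 values both came from CPIP+EA rats. Its mean was 0.713 ± 0.235 in Sham rats, 0.377 ± 0.189 after CPIP and 0.603 ± 0.540 after CPIP with EA (SD, n = 3), and its log2 fold change in CPIP against Sham, -0.47 (SE 0.33, 95% interval -1.21 to 0.27), was the lowest among the 10 genes but had an adjusted p of 0.813 in limma.

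The endosomal receptors showed no separation of the groups either. Tlr3 was at 2.96, 2.67 and 2.34 FPKM in Sham rats, 1.59, 2.63 and 2.60 after CPIP and 2.51, 2.35 and 3.51 after CPIP with EA. CPIP replicate 1 was the lowest of the 9 libraries, while the other CPIP values lay within the Sham range. The log2 fold change of Tlr3 was -0.21 (SE 0.19) in CPIP against Sham and 0.25 (SE 0.19, 95% interval -0.18 to 0.69) in CPIP+EA against CPIP. Tlr7 was at 1.30, 2.34 and 0.96 in Sham rats, 1.71, 1.72 and 2.16 after CPIP and 1.51, 1.02 and 2.17 after CPIP with EA. Sham replicate 2 held the highest value and Sham replicate 3 the lowest, so the whole range of the gene was covered within the control group. The log2 fold change of Tlr7 was 0.27 (SE 0.27) in CPIP against Sham and -0.23 (SE 0.27) in CPIP+EA against CPIP. With 1 library left out these values ran from 0.06 to 0.54 and from -0.43 to -0.02, and the Tlr3 value in CPIP against Sham was -0.01 without CPIP replicate 1. These comparisons share the CPIP libraries, so that a low or high CPIP value enters both with opposite sign.

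The adaptor Myd88 was the 1 gene of the 10 whose CPIP libraries all lay above the Sham libraries. It was at 5.09, 5.42 and 4.80 FPKM in Sham rats, 5.68, 6.41 and 6.06 after CPIP and 5.91, 5.55 and 6.91 after CPIP with EA. The lowest of the 6 values after ischemia, 5.55, was above the highest Sham value, 5.42, and the gap between them was small. Myd88 averaged 5.10 ± 0.310 in Sham rats, 6.05 ± 0.365 after CPIP and 6.12 ± 0.705 after CPIP with EA (SD, n = 3), a log2 fold change of 0.23 (SE 0.10, 95% interval 0.00 to 0.45) in CPIP against Sham and of 0.24 (SE 0.10, 95% interval 0.01 to 0.46) in CPIP+EA against Sham. The limma p was 0.0492 and 0.0402 before adjustment and 0.574 and 0.379 after adjustment over all genes tested, so neither difference passed. Both comparisons use the same Sham libraries. Over the alternatives, the unadjusted limma p of Myd88 ran from 0.0270 to 0.143 in CPIP against Sham and from 0.0228 to 0.138 in CPIP+EA against Sham, and it was above 0.05 in both on the TPM scale and with a replicate block. Without CPIP+EA replicate 3 the log2 fold change in CPIP+EA against Sham was 0.15, with the p of 0.138. Across the table, 4.05% of the genes tested had all 6 CPIP and CPIP+EA libraries above all 3 Sham libraries. Between CPIP+EA and CPIP its log2 fold change was 0.01 (SE 0.10, 95% interval -0.21 to 0.24).

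Macrophages are the cells of the ganglion best known for these genes. The summed FPKM of 16 macrophage markers was 193.5 to 234.4 in Sham rats, 216.7 to 288.8 after CPIP and 214.9 to 402.5 after CPIP with EA. In CPIP against Sham, 14 of the 16 were higher in value, 6 had groups that did not overlap (against 15.9% of all genes), 2 (Cx3cr1 and Spi1) had an unadjusted p under 0.05 (against 8.66%), and 0 passed the threshold in limma. In CPIP+EA against Sham, 13 of the 16 were higher in value, 3 had no overlap (against 16.2%), 4 had an unadjusted p under 0.05 (against 12.2%), and 0 passed. None of the 16 was below 0.1 FPKM throughout. The part of macrophage number in the Myd88 values was not tested.

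The co-receptor Cd14 was at 2.61, 2.70 and 2.01 FPKM in Sham rats, 2.67, 2.78 and 2.19 after CPIP and 2.27, 2.36 and 3.05 after CPIP with EA. The groups overlapped almost completely, and each held values on both sides of the median of the 9 libraries, 2.61. Cd14 had a log2 fold change of 0.05 (SE 0.15, 95% interval -0.28 to 0.39) in CPIP against Sham and 0.00 (SE 0.15, 95% interval -0.33 to 0.33) in CPIP+EA against CPIP, both intervals lying within 1.5-fold on the log2(FPKM + 0.5) scale.

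For the inflammasome, the sensor Nlrp3 was at 1.14, 0.82 and 0.94 FPKM in Sham rats, 1.13, 1.34 and 1.67 after CPIP and 1.16, 1.08 and 1.72 after CPIP with EA. Sham replicate 1 overlapped with the lowest library of each of the other groups, and the highest values were those of CPIP replicate 3 and CPIP+EA replicate 3. The group means were 0.967 ± 0.162, 1.38 ± 0.272 and 1.32 ± 0.349 (SD, n = 3). Its log2 fold change of 0.35 in CPIP against Sham (SE 0.17, 95% interval -0.03 to 0.74) was the highest of the 10 genes in that comparison, with an adjusted p of 0.639 in limma, and it was 0.30 in CPIP+EA against Sham (SE 0.17, adjusted p = 0.529), or 0.15 without CPIP+EA replicate 3. CPIP+EA and CPIP differed by -0.05 (SE 0.17, 95% interval -0.44 to 0.33).

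Pycard, which bridges Nlrp3 and Casp1, was at 5.01, 4.49 and 6.67 FPKM in Sham rats, 5.14, 6.09 and 6.28 after CPIP and 4.13, 4.81 and 9.38 after CPIP with EA. Casp1 was at 1.84, 2.18 and 2.68 in Sham rats, 2.04, 2.11 and 2.75 after CPIP and 2.21, 1.44 and 4.72 after CPIP with EA. Both genes had their lowest and their highest value within the CPIP+EA group, and the highest was replicate 3 each time, 1.41 times the next library for Pycard and 1.72 times for Casp1. The log2 fold change in CPIP+EA against CPIP was -0.02 (SE 0.26, 95% interval -0.61 to 0.57) for Pycard and 0.12 (SE 0.31, 95% interval -0.59 to 0.82) for Casp1. Without CPIP+EA replicate 3 these values were -0.35 and -0.28, so the sign for Casp1 rested on that library. Between CPIP and Sham they were 0.12 (SE 0.26) and 0.04 (SE 0.31).

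Set against the whole table, none of the 10 genes passed the threshold, an adjusted p under 0.01 with at least a 1.5-fold change, in limma. In CPIP against Sham, 0.355% of the genes tested passed, and of the 10 genes 6 were higher and 4 lower in value (by the sign of the log2 fold change, here and in the other counts of this kind), 1 (Myd88) had an unadjusted p under 0.05 against 8.66% of all genes, and 1 (Myd88) had groups that did not overlap against 15.9% of all genes. For CPIP+EA and CPIP, 0% passed, 6 of the 10 were higher and 4 lower in value (Pycard among the latter, although its mean FPKM was higher after CPIP with EA, 6.11 against 5.84), 0 had an unadjusted p under 0.05 against 4.29% of all genes, and 0 had groups without overlap against 8.23%. For CPIP+EA and Sham, 0.483% passed, 8 of the 10 were higher and 2 lower in value, 1 (Myd88) had an unadjusted p under 0.05 against 12.2%, and 1 (Myd88) had no overlap against 16.2%. The median log2 fold change of the 10 genes in these comparisons was 0.05, 0.01 and 0.05, beside -0.01, 0.01 and 0.00 over all genes tested. The split for the CPIP+EA group rested on its replicate 3. Once it was left out, just 2 of the 10 had a higher value and 8 a lower one, both against CPIP (Tlr3 and Tlr4 higher) and against Sham (Myd88 and Nlrp3 higher). An exact two-sided permutation test of 3 against 3 libraries cannot give a p below 0.1, which Myd88 reached in both comparisons with Sham.

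**Figure D2:**
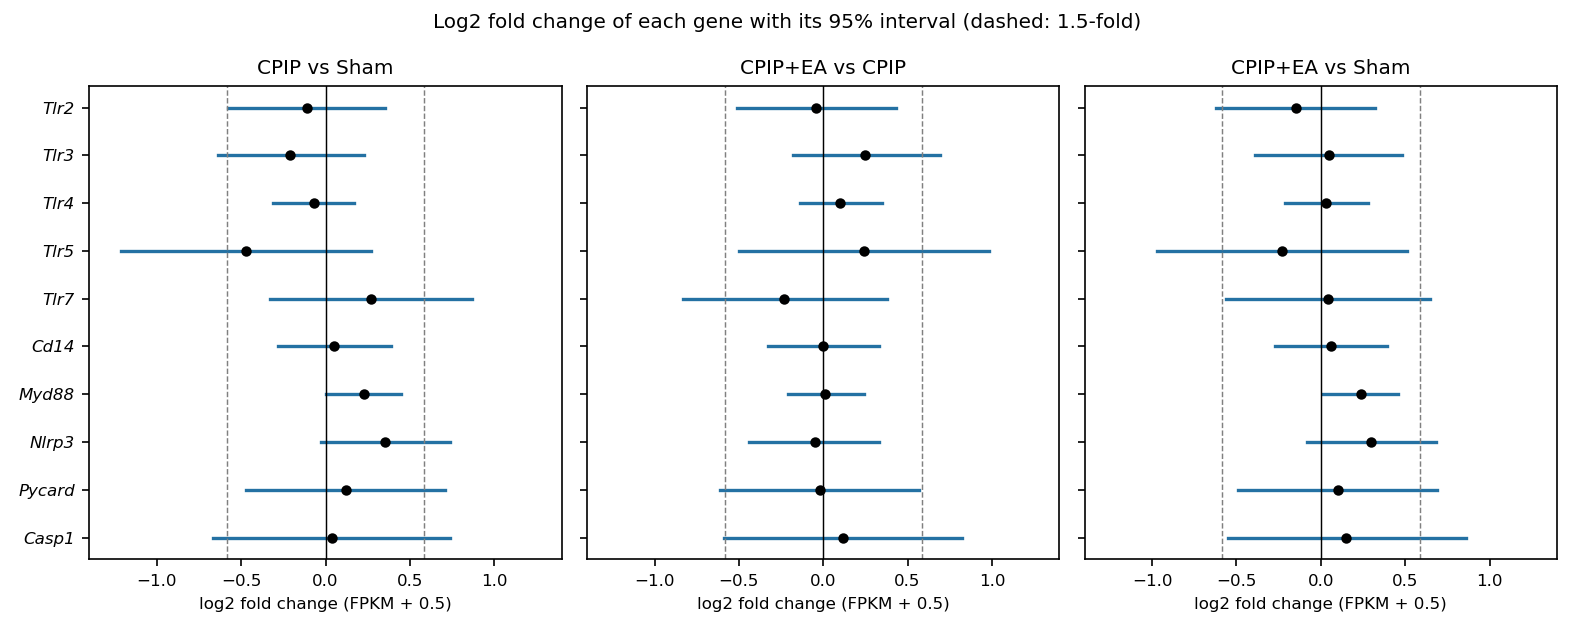
Log2 fold change (horizontal axis, on the log2(FPKM + 0.5) scale) of each gene with its 95% interval from limma in the 3 comparisons, with dashed lines at 1.5-fold in either direction. The widest intervals are those of Tlr5, Casp1, Tlr7 and Pycard, the intervals of Tlr4, Cd14 and Myd88 stay within 1.5-fold in every panel, and those of Myd88 against Sham lie just above 0.

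The intervals set what these libraries could have shown on the log2(FPKM + 0.5) scale. In CPIP against Sham, the 95% interval lay within 1.5-fold on that scale for 4 genes (Tlr2, which only just did so, Tlr4, Cd14 and Myd88), and in CPIP+EA against CPIP for 5 (Tlr2, Tlr4, Cd14, Myd88 and Nlrp3). For Tlr3, Tlr5, Tlr7, Pycard and Casp1, a 1.5-fold difference between CPIP+EA and CPIP in at least 1 direction lay inside the interval and is therefore not excluded. The widest interval in that comparison was that of Tlr5, from -0.50 to 0.98 on the log2 scale. Because 0.5 is added before the logarithm, fold changes and their limits are understated for all of these genes, most for Tlr5 and Nlrp3, and an interval within 1.5-fold on this scale can reach past it in FPKM.

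CPIP+EA replicate 3 was the highest of the 9 libraries for 8 of the 10 genes, all but Tlr2 and Tlr7, and ranked first or second for 10 of 10. It was the highest library for 20.3% of all genes tested. The same library had the highest macrophage marker sum, 402.5 against 193.5 to 288.8 in the other 8 libraries, and all 15 neutrophil and granule markers were highest there. It also had the highest B and T cell sum (36.74) and endothelial sum (74.66), and the lowest summed sensory neuron markers, 4492. The part of these markers in the values of the library was not tested. Over CPIP+EA replicates 1 and 2 alone, the mean was 5.73 for Myd88, 1.12 for Nlrp3, 4.47 for Pycard, 1.83 for Casp1 and 0.305 for Tlr5. Of the 10 means over these libraries, 2 (Myd88 and Nlrp3) were above the Sham mean and 8 were below it.

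**Figure D3:**
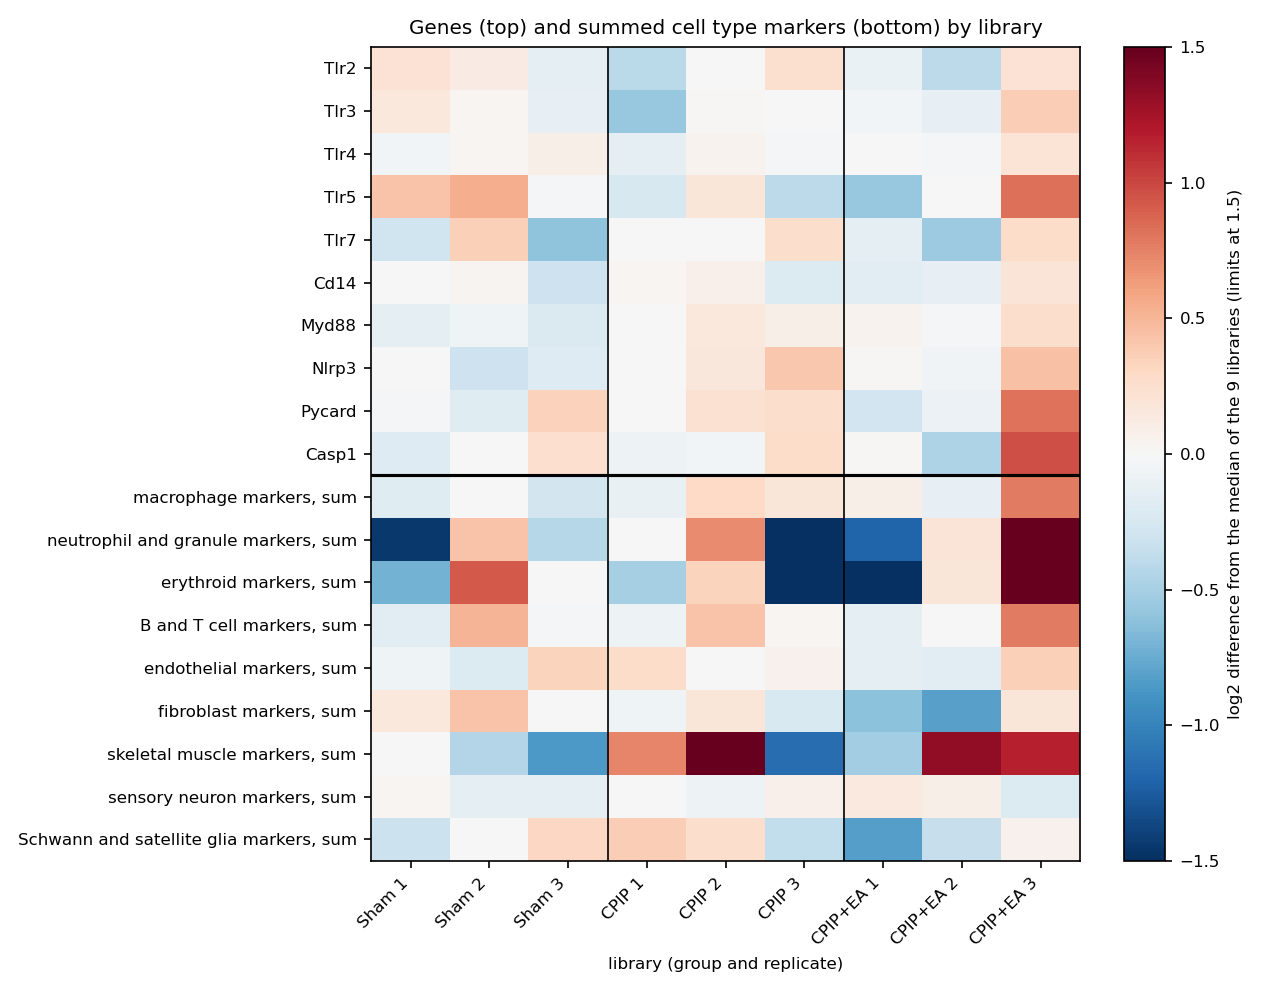
Log2 difference of each gene (top, FPKM + 0.5) and of each summed cell type marker list (bottom) from its median over the 9 libraries, by library, in red where higher and blue where lower (colours end at 1.5). The column of CPIP+EA replicate 3 is above the median for all 10 genes and for every marker sum except that of sensory neurons, which is blue.

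The 10 genes did not move as 1 block across the libraries. As a description over the 9 libraries, which share group and composition, the strongest correlation among them on the log2 scale was between Pycard and Casp1 (Pearson r = 0.83), followed by Tlr2 with Tlr3 (0.81) and Myd88 with Nlrp3 (0.79), and the weakest was between Tlr5 and Nlrp3 (0.02). A search of 13914 genes with a mean of at least 1 FPKM gave, as the profiles most like Myd88, Ahr (the aryl hydrocarbon receptor, r = 0.975), Pld4 (0.959) and Ctss (0.956), the lysosomal protease cathepsin S. Nlrp3 was most like Slc26a2 (0.963), Ifi47 (0.962), an interferon-inducible GTPase, and LOC100912658 (0.960). Casp1 was most like Rpp40 (0.970), Snrpb (0.964) and Aurkaip1 (0.956), and Pycard like Trmt6 (0.964), Gng10 (0.961) and Erbin (0.961). Of the receptors, Tlr2 was most like Irak1bp1 (0.926), Actn1 (0.912) and Slco2b1 (0.910), and Tlr3 like Acrbp (0.941), Alox5ap (0.934), the partner protein of 5-lipoxygenase, and Myo6 (0.916). Tlr4 was most like Tec (0.931), Elavl1 (0.922) and Tcp11l2 (0.922), and Tlr5 like Bace2 (0.983), Nf2 (0.977) and F13a1 (0.953). Tlr7 was most like Vta1 (0.961), Hrh1 (0.887) and Plek (0.870), and Cd14 like P2ry14 (0.922), Tiam1 (0.913) and Cd52 (0.903). With so many genes searched over 9 libraries, coefficients of this size are a ranking only.

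The remaining Toll-like receptors covered a wide span of levels. Tlr6 was the most abundant of the family, with a mean of 4.13 FPKM over the 9 libraries (range 3.50 to 5.04), followed by Tlr3, Tlr4, Tlr2, Tlr7, Tlr13 (1.49), Tlr8 (1.31), Tlr1 (0.676), Tlr5 and Tlr9 (0.428). Tlr10, Tlr11 and Tlr12 stayed at or below 0.23 FPKM in each library, and Tlr11, with a mean of 0.0722, was not tested. Tlr10 to Tlr13 were added after their values were seen. Tlr1, which forms a lipopeptide receptor with Tlr2, was at 0.49, 0.32 and 0.33 in Sham rats, 0.88, 0.87 and 0.90 after CPIP and 0.84, 0.45 and 1.0 after CPIP with EA. The CPIP libraries all lay above the Sham libraries, while CPIP+EA replicate 2 fell within the Sham range. Its log2 fold change was 0.66 (SE 0.17, adjusted p = 0.195) in CPIP against Sham, 0.50 (SE 0.17, adjusted p = 0.277) in CPIP+EA against Sham and -0.16 (SE 0.17, adjusted p = 0.997) in CPIP+EA against CPIP, and none passed. The Sham values of Tlr1 lay below the added 0.5. With 0.1 in its place the value in CPIP against Sham was 1.05, so its size is not fixed by these data. Tlr1 and Tlr6 are close paralogs, and how reads that fit both were assigned is not given in the sources used here.

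**Figure D4:**
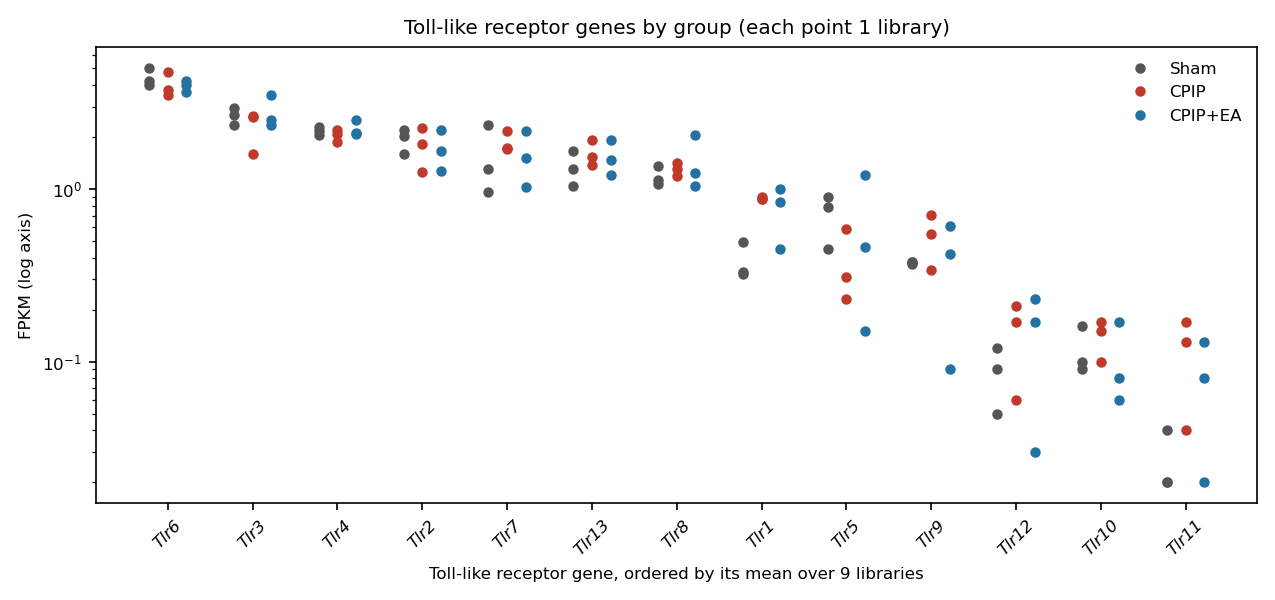
FPKM (log axis) of the 13 Toll-like receptor genes in each library, ordered by mean over the 9 libraries and coloured by group, each point being 1 library. Levels fall from Tlr6 (mean 4.13) to Tlr11 (mean 0.0722), and the Tlr1 points are those whose Sham libraries lie below the CPIP libraries.

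Helpers of the receptors were measured as well. Unc93b1, the chaperone of the endosomal receptors, ranged from 8.70 to 9.68 FPKM in Sham rats, 9.37 to 12.0 after CPIP and 9.26 to 13.9 after CPIP with EA, and Ly96 (MD-2), the partner of Tlr4 in lipopolysaccharide binding, from 2.82 to 3.18, 3.04 to 3.58 and 2.39 to 4.45. Of the 15 tested receptors and partners outside the 10 genes, 0 passed the threshold in any comparison in limma, with 1, 0 and 1 (Tlr1 each time, higher in value) at an unadjusted p under 0.05 in CPIP against Sham, CPIP+EA against CPIP and CPIP+EA against Sham, beside 8.66%, 4.29% and 12.2% of all genes.

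Downstream of the receptors, Ticam1, the adaptor that Tlr3 uses in place of Myd88, ranged from 0.94 to 1.75 FPKM over the 9 libraries, with overlapping groups. The ubiquitin ligase Traf6 ranged from 3.29 to 3.69 after CPIP and from 3.80 to 3.85 after CPIP with EA, and the Sham values, 2.92 to 3.94, spanned both. The kinase Irak4 ranged from 3.56 to 4.01 in Sham rats and from 4.05 to 4.19 after CPIP with EA, and the CPIP values, 3.65 to 4.65, overlapped with both. Nfkbia, the NF-kappaB inhibitor that is itself an NF-kappaB target, was at 8.99, 15.3 and 14.8 in Sham rats, 25.1, 25.5 and 13.3 after CPIP and 16.5, 12.2 and 14.5 after CPIP with EA. CPIP replicates 1 and 2 stood above every other library, and CPIP replicate 3 lay within the Sham range. Nfkbia had a log2 fold change of 0.67 (SE 0.27, unadjusted p = 0.0350, adjusted p = 0.517 in limma) in CPIP against Sham and -0.50 (SE 0.27, adjusted p = 0.997) in CPIP+EA against CPIP. Of the 34 signalling genes tested, 0 passed the threshold in any comparison in limma, and 1 (Nfkbia, higher), 0 and 3 (Ikbkb, Nfkbie and Tab3, of which 1 was higher and 2 lower) had an unadjusted p under 0.05, beside 8.66%, 4.29% and 12.2% of all genes.

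In the wider inflammasome list the smallest adjusted p against Sham was that of Panx1, the large-pore channel linked to ATP release and to P2rx7. It was at 5.5, 5.75 and 5.09 FPKM in Sham rats, 8.56, 9.10 and 8.86 after CPIP and 9.71, 9.28 and 7.63 after CPIP with EA. All 6 libraries from ischemic rats were above the Sham libraries (the lowest of them, 7.63, against the highest Sham value of 5.75), and CPIP and CPIP+EA overlapped. Panx1 had a log2 fold change of 0.65 (SE 0.10, 95% interval 0.43 to 0.87) in each comparison with Sham and 0.00 (SE 0.10, 95% interval -0.22 to 0.22) between CPIP+EA and CPIP. The adjusted p in limma was 0.0198 in CPIP against Sham and 0.0137 in CPIP+EA against Sham, so both missed 0.01. An adjusted p under 0.05, with no fold limit, was reached by 0.710% and 1.31% of the genes tested in these comparisons, and by Panx1 in both. These calls moved with single libraries and with the groups fitted, while the log2 fold change stayed between 0.59 and 0.75. Without CPIP+EA replicate 3 the adjusted p was 0.00568 and 0.00442, past the threshold. Leaving out any 1 Sham or CPIP library gave 0.0604 to 0.0935 in CPIP against Sham. For CPIP+EA against Sham, omitting Sham replicate 1 gave 0.0539, omitting Sham replicate 3 gave 0.0565, omitting CPIP+EA replicate 2 gave 0.0644 and fitting only these groups gave 0.0699.

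Il1r1, the signalling receptor of interleukin-1, was at 3.40, 4.08 and 3.55 FPKM in Sham rats, 6.03, 5.06 and 5.98 after CPIP and 6.05, 5.35 and 5.14 after CPIP with EA. Here too the 6 libraries lay above the Sham libraries and the CPIP and CPIP+EA libraries overlapped. The log2 fold change was 0.57 (SE 0.11, adjusted p = 0.0566) and 0.53 (SE 0.11, adjusted p = 0.0568) against Sham, and -0.04 (SE 0.11, 95% interval -0.28 to 0.20) between CPIP+EA and CPIP. Il1r2, the decoy receptor, was at 0.09, 0.27 and 0.29 in Sham rats, 0.28, 0.37 and 0.36 after CPIP and 0.48, 0.56 and 1.08 after CPIP with EA. The CPIP+EA libraries were the highest of the 9, at a log2 fold change of 0.50 (SE 0.20, adjusted p = 0.997) against CPIP and 0.73 (SE 0.20, adjusted p = 0.147) against Sham, or 0.29 and 0.52 without CPIP+EA replicate 3. The Sham and CPIP values of Il1r2 lay below the added 0.5, so these sizes are not fixed. Over all alternatives they ran from 0.29 to 0.82 and from 0.48 to 1.35. The receptor antagonist Il1rn ranged from 0.56 to 0.69 in Sham rats, 0.50 to 1.04 after CPIP and 0.68 to 1.93 after CPIP with EA, and the groups overlapped.

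The substrates and triggers of the inflammasome were measured at contrasting levels. Il1b was low, at 0.41, 0.64 and 1.16 FPKM in Sham rats, 0.64, 0.46 and 1.52 after CPIP and 1.18, 0.55 and 1.06 after CPIP with EA, and the groups overlapped. Il18 ranged from 1.22 to 2.17 in Sham rats, 1.93 to 3.17 after CPIP and 1.39 to 2.86 after CPIP with EA. Gsdmd, the pore-forming substrate, ranged from 3.49 to 5.28 over the 9 libraries, and P2rx7, the ATP receptor, from 9.09 to 14.4, each with overlapping groups. Nek7, the kinase that binds Nlrp3, was far more abundant, at 83.7 to 89.9 in Sham rats, 76.2 to 80.9 after CPIP and 81.3 to 84.1 after CPIP with EA. The CPIP libraries were the lowest of the 9 for Nek7, and its differences had an unadjusted p above 0.05. Of the 24 genes tested in this list, 0 passed the threshold in any comparison in limma, with 2 (Il1r1 and Panx1), 1 (Il1r2) and 3 (Il1r1, Il1r2 and Panx1) at an unadjusted p under 0.05, all higher in value. These counts were close to the shares over all genes, 8.66%, 4.29% and 12.2%.

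**Figure D5:**
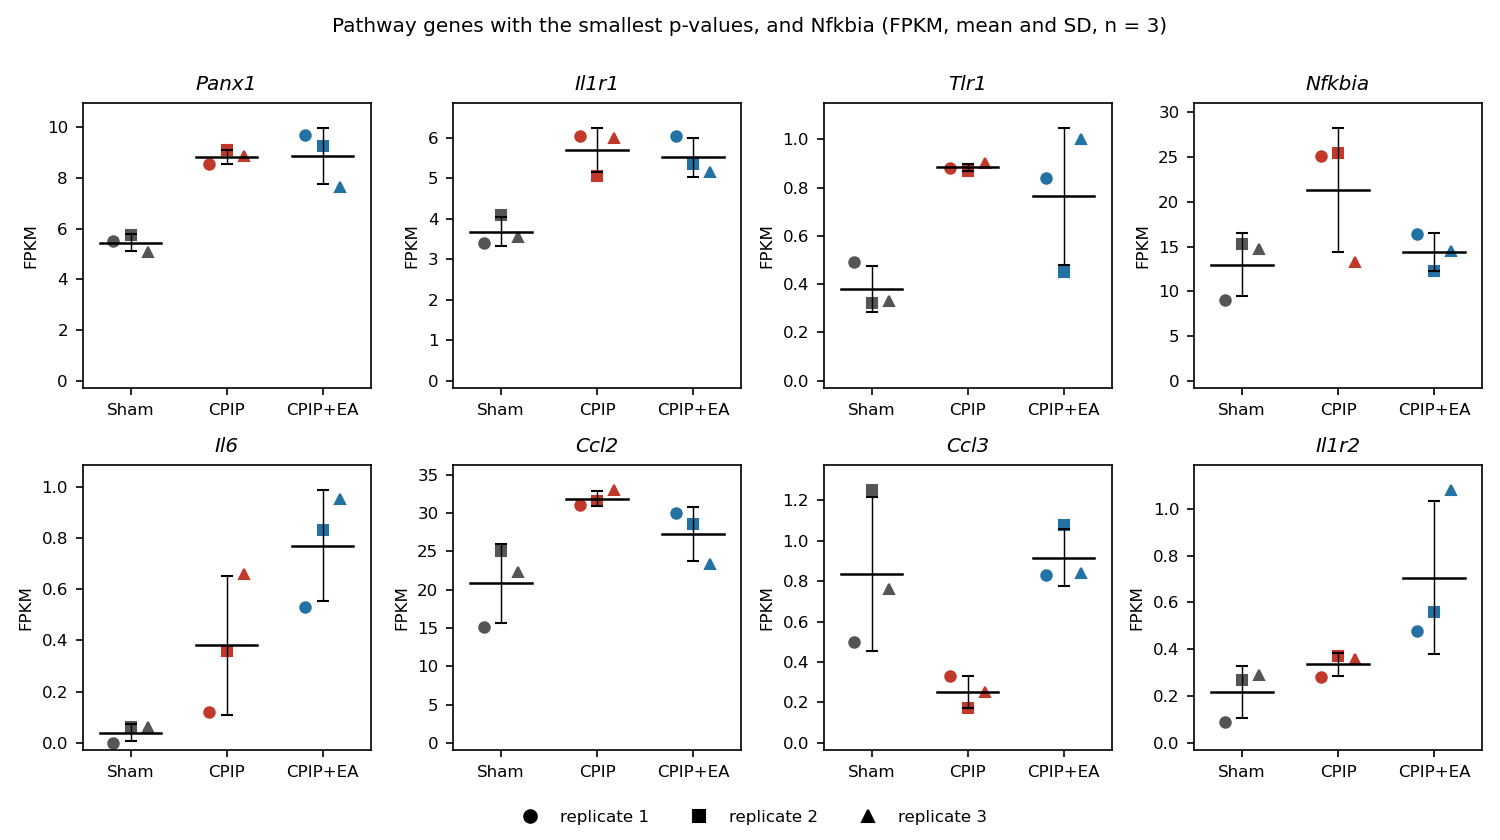
FPKM (vertical axes including 0) of 8 pathway genes in each library, with symbols for replicates 1 to 3, a line at the group mean and bars of 1 SD (n = 3). Panx1, Il1r1 and Il6 are the panels in which the 6 CPIP and CPIP+EA libraries lie above the 3 Sham libraries, and Ccl3 is the panel in which the CPIP libraries, 0.17 to 0.33 FPKM, lie below both other groups.

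Among 11 tested NF-kappaB target cytokines and related genes, Il6 was near 0 in Sham, at 0, 0.06 and 0.06 FPKM, and it was at 0.12, 0.36 and 0.66 after CPIP and 0.53, 0.83 and 0.95 after CPIP with EA. Every library from an ischemic rat was above every Sham library. Its log2 fold change was 0.66 (SE 0.22, adjusted p = 0.389) in CPIP against Sham and 1.22 (SE 0.22, adjusted p = 0.0359) in CPIP+EA against Sham, both short of the threshold. The added 0.5 is far above the Sham values, and with 0.1 in its place these log2 fold changes were 1.64 and 2.64, so their size is not fixed by these data. The chemokine Ccl2 was at 15.1, 25.0 and 22.3 in Sham rats, 31.0, 31.6 and 33.0 after CPIP and 30.01, 28.6 and 23.3 after CPIP with EA. The CPIP libraries were the highest of the 9, with a log2 fold change of 0.63 (SE 0.17, adjusted p = 0.198) against Sham and -0.23 (SE 0.17, adjusted p = 0.997) in CPIP+EA against CPIP. Ccl3, a macrophage chemokine, was at 0.50, 1.25 and 0.76 in Sham rats, 0.33, 0.17 and 0.25 after CPIP and 0.83, 1.08 and 0.84 after CPIP with EA. The CPIP libraries were the lowest of the 9, and both comparisons that use them gave a difference of similar size and opposite sign, -0.80 (SE 0.20, adjusted p = 0.164) against Sham and 0.92 (SE 0.20, adjusted p = 0.944) for CPIP+EA against CPIP. The sizes for Ccl3 also depend on the added 0.5. With 0.1 in its place the value against Sham was -1.37, and over all alternatives that against CPIP ran from 0.62 to 1.56. Socs3, a feedback inhibitor of cytokine signalling, and Anxa1, an anti-inflammatory phospholipid-binding protein, were highest in mean in CPIP+EA, at log2 fold changes of 0.64 (SE 0.19, adjusted p = 0.201) and 0.58 (SE 0.19, adjusted p = 0.237) against Sham.

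The 3 further lists held no gene past the threshold in limma. Of the 11 NF-kappaB target genes, 3 (Il6, Ccl2 and Ccl3), 2 (Il6 and Ccl3) and 3 (Il6, Ccl2 and Socs3) had an unadjusted p under 0.05 in CPIP against Sham, CPIP+EA against CPIP and CPIP+EA against Sham, beside 8.66%, 4.29% and 12.2% of all genes. They were higher in value except Ccl3 in CPIP against Sham. Of the 13 other NOD-like and cytosolic nucleic acid receptors, 1 (Ciita, higher), 0 and 0 did so, and of the 9 danger signals 0, 0 and 3 (Anxa1 higher, Bgn and Fn1 lower). Bgn and Fn1 encode extracellular matrix proteins, and in the same comparison 5 of 6 fibroblast markers were lower at an unadjusted p under 0.05 and 0 passed the threshold in limma, with a summed FPKM of 978.3 to 1311 in Sham rats and 555.0 to 1109 after CPIP with EA. The part of fibroblast number in these values was not tested. Ciita, Bgn and Fn1, like Ikbkb and Nfkbie, were named after their values were seen.

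Over the 106 pathway genes tested outside the 10, which were listed in 6 groups, 0 passed the threshold in any comparison in limma. In CPIP against Sham 7 were higher and 1 lower in value at an unadjusted p under 0.05, in CPIP+EA against CPIP 3 and 0, and in CPIP+EA against Sham 9 and 4. Over all genes tested, the shares at that p were 4.61% higher and 4.06% lower, 2.22% and 2.07%, and 6.59% and 5.63%. Groups without overlap were found for 14, 9 and 16 of the 106 genes, against 15.9%, 8.23% and 16.2% of all genes. The median log2 fold change was 0.06, 0.02 and 0.12, beside -0.01, 0.01 and 0.00 over all genes tested. In 3 of the 106, Panx1, Il1r1 and Il6, all 6 CPIP and CPIP+EA libraries lay above the Sham libraries, and in 1, Tab3, they all lay below, against 4.05% and 3.22% of all genes. Tab3 was picked out after its values were seen.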

How the data were processed

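Per the study's methods, rat DRG RNA was sequenced as single-end reads and filtered with SOAPnuke. The aligner, counting tool, genome build and strand setting are not given in the sources used here. The authors deposited FPKM (fragments scaled by transcript length and by mapped reads) for 9 libraries, to 2 decimals, beside columns of log2 ratios, P and Q values of their own comparisons, which were not used. Testing used limma 3.58.1 (R 4.3.3), with trended variance and 1 fit over the 9 libraries, after adding 0.5 to each FPKM and taking log2, for genes with a mean of at least 0.1 FPKM. Two-sided p-values were adjusted by Benjamini-Hochberg over all 17187 genes tested, and the threshold, after the study, was an adjusted p under 0.01 with at least 1.5-fold. Only these cutoffs are the study's, so the counts given here are not its counts. The study did report genes past its cutoffs in CPIP+EA against CPIP, and higher Ccl3 and Il1rn after EA by qPCR. The script was tested on simulated data. Groups and the 3 rats per group follow the labels and methods. Besides the 10 genes, the text names genes of 6 pathway lists with an unadjusted p under 0.05 and no overlap (up to 6 per comparison), 16 fixed genes, and the 3 genes most alike to each. The genes and lists were chosen with earlier results of these data known. Of 210 listed genes 209 matched the table, 2 by an older symbol. Promoters came from RefSeq (GRCr8) and matched by gene ID. The precision is limited by 3 libraries per group. Alternatives were other pseudocounts, scalings, filters and fits, a replicate block, and each library left out.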

Additional observations from a re-analysis of the deposited data

How the results depend on the processing

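None of the 10 genes passed the threshold in any comparison under any alternative, and the smallest adjusted p among them was 0.335 (Myd88). Over all genes, the count past the threshold moved from 61 to 40 in CPIP against Sham without the filter and to 122 at an adjusted p under 0.05 with no fold limit, and ranged from 30 to 62 with 1 library left out. In CPIP+EA against CPIP it moved from 0 to 1 when only these groups were fitted, and ranged from 0 to 2 with 1 library left out. In CPIP+EA against Sham it moved from 83 to 55 without the filter, to 46 when only these groups were fitted and to 226 at an adjusted p under 0.05, and ranged from 35 to 82 with 1 library left out. Between libraries of the same replicate number, correlations of the deviations ran from -0.24 to 0.30 over 9 pairs, 2 of them over 0.1. Libraries of different replicate number were not compared, so whether the numbers pair the samples is not decided. The replicate block gave 26, 0 and 42 genes past the threshold and none of the 10.

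Small differences changed sign. In CPIP+EA against CPIP, the TPM scale gave log2 fold changes of -0.02 for Cd14 and -0.01 for Myd88, quantile normalization 0.00 for Pycard and for Panx1, and median centring 0.01 for Panx1. The cause was not tested. With 1 library left out, signs changed within these ranges. In CPIP against Sham they were -0.26 to 0.06 for Tlr2, -0.06 to 0.14 for Cd14 and -0.07 to 0.15 for Casp1. In CPIP+EA against CPIP they were -0.21 to 0.11 for Tlr2, -0.13 to 0.56 for Tlr5, -0.11 to 0.07 for Cd14, -0.07 to 0.07 for Myd88, -0.21 to 0.05 for Nlrp3, -0.35 to 0.20 for Pycard, -0.28 to 0.43 for Casp1, -0.07 to 0.10 for Panx1, -0.12 to 0.00 for Il1r1 and -0.29 to 0.04 for Tlr1. In CPIP+EA against Sham they were -0.10 to 0.14 for Tlr3, -0.03 to 0.07 for Tlr4, -0.60 to 0.09 for Tlr5, -0.17 to 0.31 for Tlr7, -0.05 to 0.12 for Cd14, -0.23 to 0.32 for Pycard, -0.24 to 0.47 for Casp1, -0.07 to 0.33 for Ccl3 and -0.07 to 0.30 for Nfkbia. The values of several genes moved by over 1.5 times and kept their sign, among them the following. Against Sham, CPIP gave -0.31 to -0.01 for Tlr3, -0.12 to -0.02 for Tlr4, 0.06 to 0.54 for Tlr7, 0.01 to 0.27 for Pycard and 0.44 to 0.97 for Nfkbia, and CPIP+EA gave 0.15 to 0.30 for Myd88, 0.15 to 0.39 for Nlrp3 and 0.20 to 0.55 for Ccl2. Against CPIP, CPIP+EA gave 0.06 to 0.35 for Tlr3, 0.03 to 0.15 for Tlr4, -0.43 to -0.02 for Tlr7, 0.29 to 0.63 for Il1r2, -0.30 to -0.12 for Ccl2 and -0.80 to -0.35 for Nfkbia. The alternatives for Panx1, Il1r1, Il1r2, Tlr1, Il6, Ccl2, Ccl3, Socs3, Anxa1 and Nfkbia were added after seeing the data. The table holds no counts, so counting error is not covered, and values near 0.1 FPKM carry few significant digits.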

Other observations

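The values of 4 genes picked after they were seen, Irf7, Dhx58, Ddx58 and Ifih1, are given beside Nlrp3, and no list of such genes was tested. Irf7, a transcription factor of type I interferon induction downstream of Tlr7 and Tlr9, was at 15.95, 8.49 and 12.58 FPKM in Sham rats, 12.45, 14.50 and 24.57 after CPIP and 10.68, 11.37 and 58.95 after CPIP with EA. The RNA sensor Dhx58 was at 3.61, 2.42 and 3.08 in Sham rats, 3.19, 3.30 and 7.06 after CPIP and 3.17, 2.73 and 9.54 after CPIP with EA, and Ddx58 (RIG-I) at 4.36, 2.55 and 3.35, 3.58, 3.61 and 6.95, and 3.77, 3.49 and 7.85. For each of these genes CPIP+EA replicate 3 was the highest library and CPIP replicate 3 the next, and the other 7 libraries lay lower. Ifih1 (MDA5) followed the same order, with 6.48 in CPIP+EA replicate 3, 5.12 in CPIP replicate 3 and 2.85 to 4.09 elsewhere. Irf3, a further interferon regulatory factor picked in the same way, did not share this order and ranged from 38.79 to 48.70, with its highest value in CPIP+EA replicate 2. Nlrp3 had its highest values in the same pair of libraries, at 1.72 and 1.67, with 0.82 to 1.34 elsewhere. This was not particular to Nlrp3. Casp1 (4.72 and 2.75) and Tlr2 (2.20 and 2.25) were also highest there, with Sham libraries close behind at 2.68 and 2.19. The share of all genes with this order was not counted.

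The neutrophil proteins S100a8 and S100a9, which are ligands of Tlr4, spanned a far wider range than the receptor. S100a8 was between 11.43 and 90.77 FPKM in 8 libraries and 238.43 in CPIP+EA replicate 3, and S100a9 between 14.06 and 114.70 and 272.19, while Tlr4 stayed between 1.86 and 2.51 in the 9 libraries. Il1a was listed at 0 in the 3 Sham libraries, at 0.06, 0.09 and 0.15 after CPIP and 0.09, 0.24 and 0.18 after CPIP with EA, and no fold is given against a group at 0.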
